A study of Ictalurus punctatus with 54 samples.

Results

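The set described here holds 112 transcripts of the gill of the channel catfish (Ictalurus punctatus) that were lower right after copper sulfate, in Cu0h fish, than in untreated control fish. They were chosen from these same data. A transcript entered the set when the highest of the 6 Cu0h fish lay below the lowest of the 6 control fish, the control mean was at least 10 CPM, and that mean was at least 2 times the Cu0h mean. Of 37586 transcripts counted, 13672 had a count of at least 10 in at least 6 fish, and 112 of these (0.819%) met the rule. The mirror rule, for transcripts that were higher in Cu0h than in control, found 60. CPM is a read count expressed relative to the library total after scaling by the trimmed mean of M-values (TMM), so that libraries of different composition can be compared.

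The gill is the organ in which a fish takes up oxygen and exchanges salts with the water, and it is covered by a thin epithelium with mucous cells, ion-transporting cells and immune cells. Copper sulfate is used in pond culture against parasites, fungi and bacteria, and the gill surface is a main site of contact with dissolved copper. Flavobacterium columnare and its close relative F. covae cause columnaris disease, which begins on the skin and gills. The study asked how the time between copper and the bacterium affects the gill's response. The question followed here is narrower, namely what became of the transcripts lowered right after copper, in fish held for 24 h and in fish that met the bacterium.

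Gill RNA of 54 single fish was sequenced after poly(A) selection, in 9 groups of 6 fish. The Cu0h fish (labelled Cu0) were sampled at once after copper sulfate, and Cu0h-1h, Cu0h-4h and Cu0h-24h fish (labelled Cu0_Fcol) were challenged at once with the bacterium and sampled 1, 4 and 24 h later. The Cu24h fish (labelled Cu24) were sampled 24 h after copper, and Cu24h-1h, Cu24h-4h and Cu24h-24h fish (labelled Cu24_Fcol) were challenged at that point and sampled 1, 4 and 24 h later. The control fish received neither copper nor bacterium and were sampled at the start. The dose is written as 2.1 mg per mL in the submitted series text and as the same figure per litre in the study's methods. The labels describe the 24 h as an exposure to copper, and the methods describe a static treatment followed by running fresh water. The bacterium is F. columnare in the labels and F. covae in the study's report. Fish challenged without copper were not analysed here, nor were unchallenged copper-treated fish other than Cu0h and Cu24h. Challenge and elapsed time therefore cannot be told apart in the Cu24h-1h, Cu24h-4h and Cu24h-24h fish against Cu24h. Only Cu0h-24h and Cu24h were both sampled 24 h after copper. Fish were spread over replicate tanks whose numbers were not given for single fish, so p-values measure the spread between fish and may miss a spread between tanks.

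Library totals lay between 352013 and 1190864 counts, with a median of 776356. Some libraries stood apart. At an equal depth of 352013 counts, Cu0h replicates 1 to 4 showed 12494 to 13936 transcripts, against 17943 and 17866 in Cu0h replicates 5 and 6. Cu24h replicates 1 and 3 showed 11357 and 12931 transcripts, against 17300 to 18841 in the other Cu24h fish. Cu0h-24h replicate 6 showed 13653, against 16310 to 17434 in the others of its group. Cu0h-4h replicate 4 showed 13368, against 16045 to 17225. The control libraries showed 14547 to 15394. The TMM factors moved with this number, so libraries with few transcripts were scaled up. They were 0.6097 and 0.7074 in Cu24h replicates 1 and 3 and 1.067 to 1.297 in the other Cu24h fish. In control fish they were 0.7583 to 0.8537. In Cu0h they were 0.7046 to 0.783 in replicates 1 to 4 and 1.17 and 1.177 in replicates 5 and 6. The medians of the groups other than control and Cu0h were 0.991 to 1.207, so control fish were scaled up relative to these. The part of that in the counts of members below control was not tested. The control files also differed from the other 48 in their line ends, and whether they were made apart cannot be told apart from the group. The files name transcripts by Ensembl identifiers without gene names, so no role can be given to any member, and the identity of the cells that express them is not known. In bulk tissue, fewer cells of a type and less RNA per cell cannot be told apart.

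The set was made up of fairly abundant transcripts. Its control means ran from 11.6 to 53465 CPM with a median of 111.6 CPM, against a median of 26.9 CPM over all 8120 transcripts with a control mean of at least 10 CPM. A rule without overlap is met more easily by transcripts with many counts, so this follows in part from the choice. The 8120 were not matched to the members for abundance, so every share over them is a rough background. As a description of the values that chose the set, the ratio of the Cu0h mean to the control mean had a median of 0.325 over the 112 members and of 0.891 over the 8120. Of those 8120, 148 (1.82%) had every Cu0h fish below every control fish. At the edge of the rule, the last members inside had control means of 2.00, 2.01 and 2.02 times the Cu0h mean. A further 36 transcripts did not overlap but fell short of the ratio, the nearest at 1.99, 1.98 and 1.97 times. Another 903 reached the ratio but overlapped, and the narrowest of these had a highest Cu0h fish at 237 CPM against a lowest control fish at 235 CPM. The narrowest member inside had 331 CPM in the highest Cu0h fish against 332 CPM in the lowest control fish. No single Cu0h fish was responsible for the highest value of most members, since each of the 6 was the highest for 10 to 30 members. The size of the set did depend on the scaling and on the fish kept. Without TMM scaling 69 transcripts met the rule, and 66 of them were among the 112. A rule without overlap is met more easily with fewer fish, so growth of the set follows in part from leaving fish out. With any 1 of the 12 fish left out the rule found 127 to 170 transcripts. It found 170 without Cu0h replicate 5 and 167 without control replicate 2. Without Cu0h replicates 5 and 6 it found 510 transcripts, 103 of them among the 112. No other pair was left out, so the 510 cannot be set against another pair.

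In fish held for 24 h after copper without challenge, the set stood closer to control than in Cu0h fish. The ratio of the Cu24h mean to the control mean had a median of 0.678 over the 112 members, against 0.918 over the 8120 transcripts. In 107 of the 112 (95.5%, against 99.5% of the 8120) at least 1 Cu24h fish lay within or above the control range. A single fish is enough for this. Fish by fish, 45 to 75 of the 112 members lay below the lowest control fish. The lowest of these counts, 45 and 50, were in Cu24h replicates 1 and 3, with few transcripts detected. The same counts over the 8120 were not taken. The mean was at most 50% of control in 18 members (16.1%, against 7.87% of the 8120) and at or above control in 14 (12.5%, against 41.6%). All 6 Cu24h fish lay below the lowest control fish in 5 members (4.46%), and over the 8120 transcripts this share was 0.456%. The Cu24h mean was above the Cu0h mean in 110 of 112 members, as it was in 54.3% of the 8120. Because the Cu0h and control fish chose the members, these values are given without a test.

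The share of all counts that fell in the 112 transcripts needs no scaling between libraries. Its lowest, median and highest values were 2.33%, 3.02% and 3.40% in Cu0h fish, 5.32%, 6.82% and 8.67% in Cu24h fish, and 6.19%, 7.33% and 8.33% in control fish. The Cu24h and control ranges of this share overlapped. The Cu0h range lay below both, which the choice of members on Cu0h and control fish largely fixed, so it is no separate evidence. ENSIPUT00000014475, the most abundant member, made up a large part of these sums. Without it the summed level was 12400 to 18665 CPM in Cu0h, 21889 to 52045 CPM in Cu24h and 37376 to 43476 CPM in control. Unlike the shares, these sums are scaled by TMM, and an unscaled share without this member was not taken. The Cu24h spread was wide, and the highest value came from Cu24h replicate 1, one of the libraries with few transcripts. The median log2 ratio to control over the 112 members gives each member equal weight, and by it the ranges did not overlap. It was -1.26 to -0.15 in Cu24h fish and -0.10 to 0.07 in control fish, which took part in the choice. Like the sums, this ratio is scaled by TMM.

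**Figure D1:**
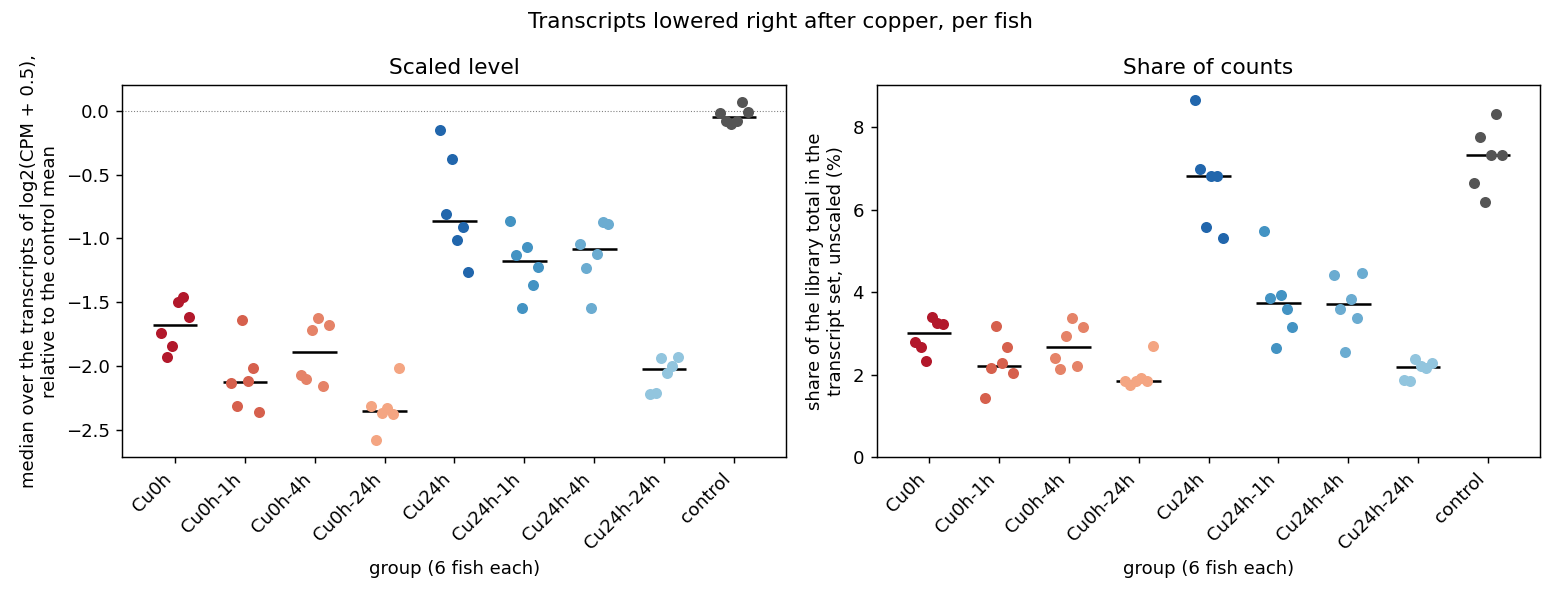
Level of the 112 transcripts in each of the 54 fish (points), with the median of the 6 fish of a group (black line). The left panel gives the median over the 112 transcripts of the TMM-scaled log2 ratio to the control mean. The right panel gives the unscaled share of counts in %. In both panels Cu24h lies nearest to control among the copper-treated groups, and Cu0h-24h and Cu24h-24h lie low, with share medians of 1.85% and 2.19%.

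In fish challenged at once after copper, the set was low at 1, 4 and 24 h. The median ratio to control was 0.260 in Cu0h-1h, 0.289 in Cu0h-4h and 0.222 in Cu0h-24h, while over the 8120 transcripts it was 0.874, 0.850 and 0.817. Every fish was below the lowest control fish for 78 members in Cu0h-1h, 79 in Cu0h-4h and 88 in Cu0h-24h, which is 69.6%, 70.5% and 78.6% of the set. The background shares over the 8120 transcripts were 11.5%, 9.27% and 11.6%. These counts share the control fish that chose the set and carry no test. The same holds for the fish challenged later, in which 43 members were below control in every fish in Cu24h-1h, 47 in Cu24h-4h and 86 in Cu24h-24h, with background shares of 3.52%, 4.41% and 12.2%. The level at 24 h was also compared with that at 1 h, between groups that took no part in the choice. In Cu0h-24h against Cu0h-1h, 79 members passed the expression filter, and 3 were downregulated and none upregulated at an edgeR false discovery rate (FDR) under 0.05 and a log2 fold change above 1 in size. Of all transcripts tested, 0.626% were downregulated and 1.38% upregulated. The members' median log2 fold change was -0.24, against -0.02 over all transcripts tested. An unadjusted edgeR p under 0.05 was found for 17 members, 16 of them lower in Cu0h-24h. The share of all transcripts at that p was not taken. Of the 112 members, 40 had the lowest of their 9 group means in Cu0h-24h (35.7%, against 15% of the 8120), more than in any other group. Cu0h itself, on which the members were chosen, was the lowest for 23 (20.5%, against 12.4%).

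In fish challenged after the 24 h, the set was lower at 24 h after challenge than in the unchallenged Cu24h fish. In Cu24h-24h against Cu24h, 92 of the 112 members passed the filter, and 63 of these were downregulated and 1 upregulated. Downregulated transcripts were 10% of all those tested and upregulated ones 9.82%. The median log2 fold change of the members tested was -1.58, with a middle range of -1.99 to -1.07, against a median of -0.06 over all transcripts tested. The filter asks for counts in at least as many fish as 1 group holds. A member with few counts in Cu24h-24h could therefore pass it through the Cu24h fish alone. The count is a description of those that passed. Over all 112 members with no such filter, every Cu24h-24h fish was below every Cu24h fish in 36 members, and no member was the other way round. Over the 8120 transcripts these shares were 3.63% and 5.57%. The Cu24h-24h mean was below the means of Cu24h, Cu24h-1h and Cu24h-4h in 94 members (83.9%), as it was in 39.3% of the 8120.

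The same was seen between the 2 groups sampled 24 h after copper. By the labels and methods, these may also differ in length of copper contact and in water handling, which cannot be told apart from challenge. In Cu0h-24h, which had been challenged, against Cu24h, which had not, 89 members passed the filter, 66 were downregulated and 1 was upregulated. The background was 10.6% downregulated and 11% upregulated. The median log2 fold change was -1.61 over the members tested and -0.06 over all transcripts tested. Every Cu0h-24h fish was below every Cu24h fish in 40 of the 112 members, against 3.45% of the 8120 transcripts. The comparison shares its Cu24h fish with the one above, and 57 members were downregulated in both. The share of all transcripts downregulated in both was not taken. The unscaled share of counts was 1.76% to 2.69% in Cu0h-24h and 1.85% to 2.38% in Cu24h-24h, and neither range reached the 5.32% to 8.67% of Cu24h. A large part of each share was ENSIPUT00000014475. Without it the TMM-scaled sums were 6673 to 11394 CPM in Cu0h-24h, 7036 to 9130 CPM in Cu24h-24h and 21889 to 52045 CPM in Cu24h. Cu24h replicates 1 and 3, with few transcripts detected, had the highest scaled levels of their group. Without these 2 fish, 58 members were called in Cu24h-24h and 58 in Cu0h-24h. The share of all transcripts called without them was not taken.

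The first hours after the later challenge gave smaller differences. In Cu24h-1h against Cu24h, 89 members passed the filter, 3 were downregulated and none was upregulated, with 0.337% of all transcripts tested downregulated and 0.305% upregulated. In Cu24h-4h against Cu24h, 93 passed, 8 were downregulated and none was upregulated, against backgrounds of 1.48% and 1.2%. A negative log2 fold change was found in 68 of 89 and 75 of 93 members (76.4% and 80.6%). Over all transcripts tested it was found in 52.9% and 53%. The medians were -0.46 and -0.52 over the members, and -0.04 in both comparisons over all transcripts tested. The counts of members called depended on the fish and the fit used. The share of all transcripts called was not taken for the other fits, so the counts that follow have no background beside them. With Cu24h replicates 1 and 3 left out, 21 members were called in Cu24h-1h and 23 in Cu24h-4h, 7 of them upregulated in each. Without replicate 3 alone, 8 were called in Cu24h-1h, 1 of them upregulated, and without Cu24h-4h replicate 1, 9 were called in Cu24h-4h, 1 of them upregulated. With every fish kept, all 9 groups in 1 fit gave 13 in Cu24h-1h, none upregulated, and 28 in Cu24h-4h, 5 of them upregulated. With no filter the counts were 10 and 16, of which 1 and 4 were upregulated.

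**Figure D2:**
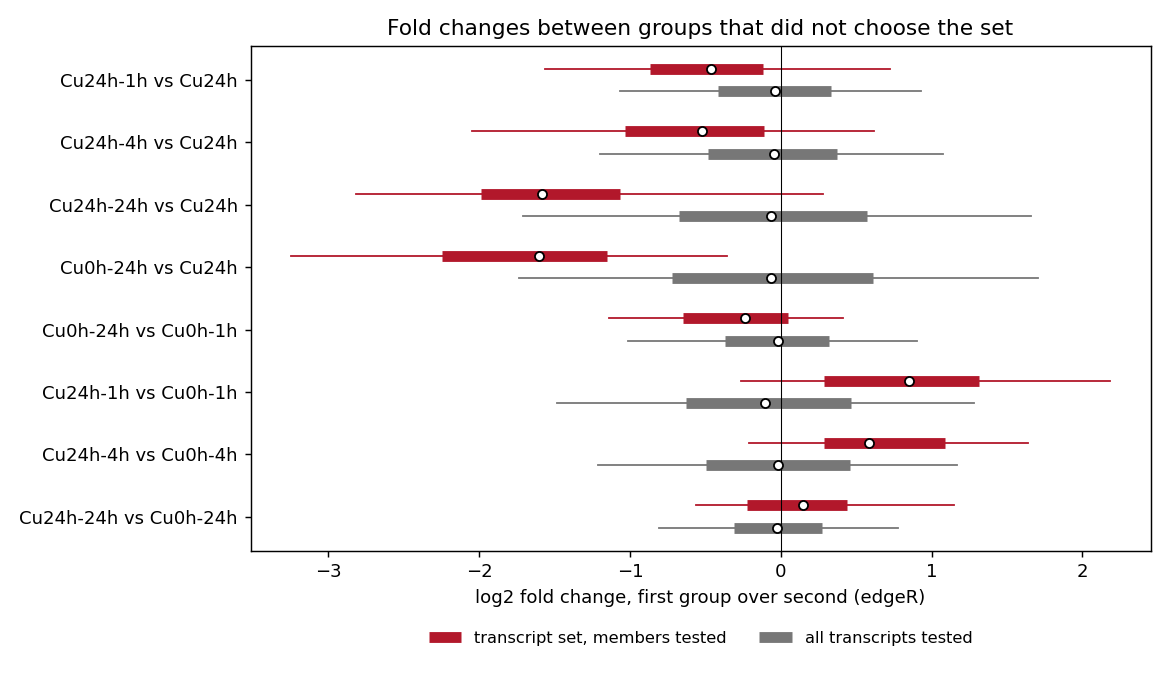
Log2 fold changes (edgeR, first group over second) in the 8 comparisons between groups that did not choose the set. Circles are medians, thick bars the middle range between the quartiles and thin lines the 5th to 95th percentiles, in red for the members tested and in grey for all transcripts tested. The members lie to the left in the comparisons of Cu24h-24h and Cu0h-24h with Cu24h, with medians of -1.58 and -1.61, and to the right in Cu24h-1h against Cu0h-1h, with a median of 0.85.

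At 1 and 4 h after challenge, the set was higher in fish challenged 24 h after copper than in fish challenged at once. These fish differ both in when they were challenged and in the time since copper at sampling. By the labels and methods, they may also differ in length of copper contact and in water handling. None of these can be told apart. In Cu24h-1h against Cu0h-1h, 78 members passed the filter, and 29 were upregulated and none downregulated. All transcripts tested split into 6.95% upregulated and 7.5% downregulated. The median log2 fold change was 0.85 for the members tested and -0.10 for all. In Cu24h-4h against Cu0h-4h, 86 passed, 21 were upregulated and none was downregulated, with backgrounds of 4.18% and 3.91% and medians of 0.59 and -0.02. Without any filter on these groups, the Cu24h-1h mean was above the Cu0h-1h mean in 92 of 112 members, and the Cu24h-4h mean above the Cu0h-4h mean in 98, against 51% and 54.8% of the 8120 transcripts. All fish were separated in this direction for 19 and 9 members, against 4.41% and 2.54%.

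At 24 h after challenge no member passed the test between schedules. In Cu24h-24h against Cu0h-24h, 82 members passed the filter and edgeR called none. DESeq2 called 1, and 15 members had an unadjusted edgeR p under 0.05, 13 of them higher in Cu24h-24h. The shares of all transcripts for these counts were not taken. Over all 8373 transcripts tested with edgeR, 0.0478% were upregulated and 0.107% downregulated. With no filter 4 members were called, all upregulated, and the share of all transcripts called in that fit was not taken. The median log2 fold change was 0.15 over the members, with a middle range of -0.22 to 0.44, and -0.02 over all transcripts tested. Over all 112 members, the Cu24h-24h mean was above the Cu0h-24h mean in 70 (62.5%), against 48.5% of the 8120. Whether the difference between schedules changed with time was not tested.

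**Figure D3:**
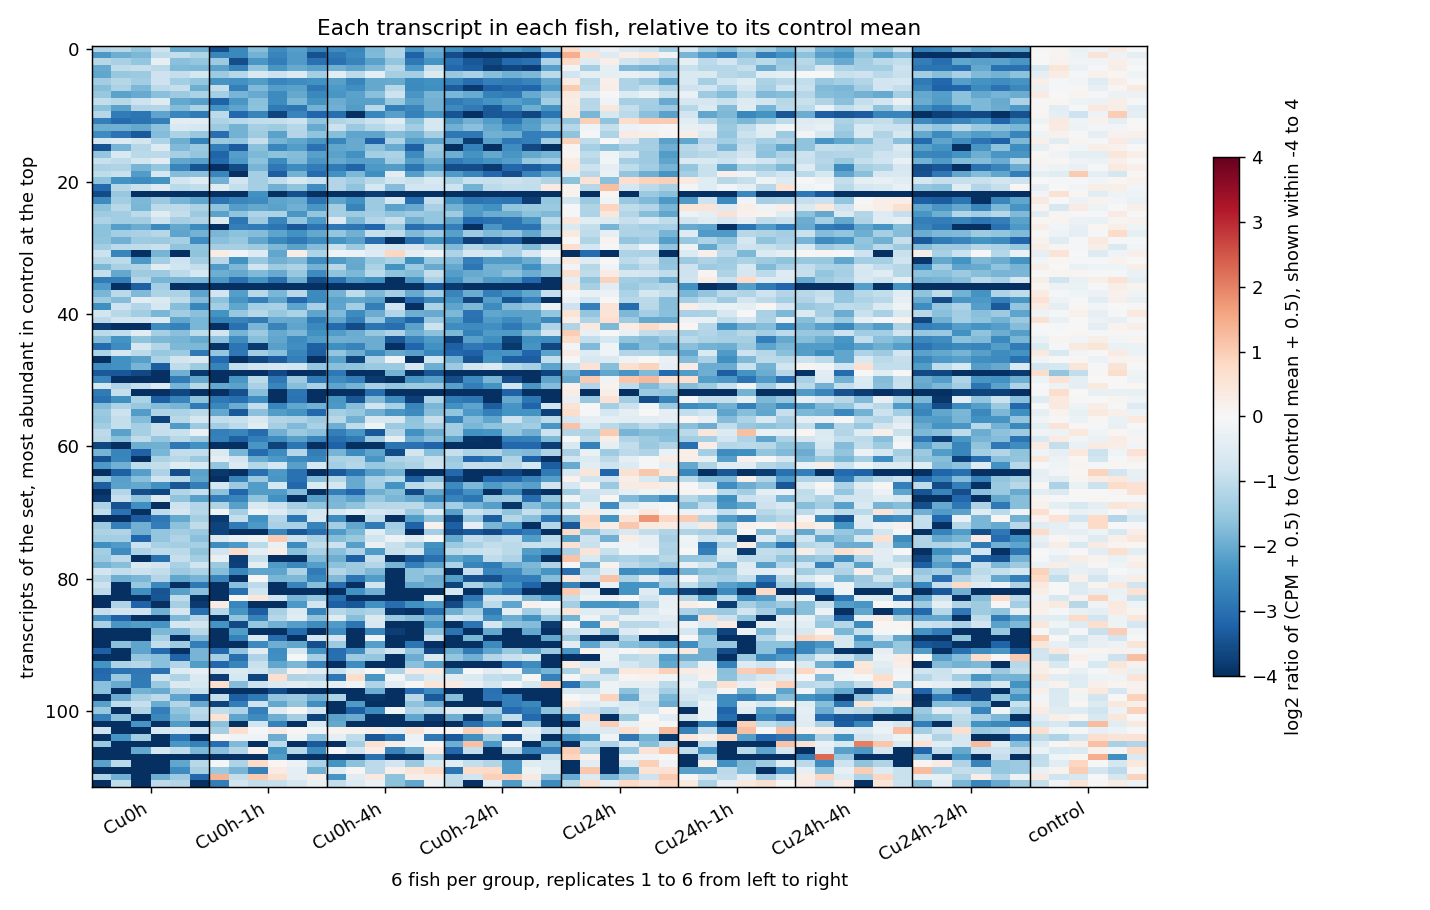
Log2 ratio of each of the 112 transcripts to its control mean (rows, most abundant at the top) in each of the 54 fish (columns, 6 per group), with 0.5 CPM added before the logarithm and the colours held within -4 to 4. Blue is below the control mean and red above it. Cu24h is the palest of the copper-treated blocks, and the lowest rows hold the members with few counts, in which single fish drop to 0.

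Among the single transcripts, ENSIPUT00000014475 dominated the set. It had 13272, 21047 and 30358 CPM (lowest, median and highest fish) in Cu0h and 20940, 36669 and 92013 CPM in Cu24h, against 44070, 52421 and 67654 CPM in control. The Cu0h range lay below that of control, and the Cu24h range spanned it. After TMM scaling, only Cu24h replicates 1 and 3, with few transcripts detected, lay above the lowest control fish, at 92013 and 45559 CPM. The other Cu24h fish had 20940 to 37772 CPM. Which fish lay above it depended on the scaling. Unscaled, this member had 15729 of 496343 counts in Cu24h replicate 3 and 38256 of 977060 in Cu24h replicate 2. Control replicate 3, the lowest control fish, had 24049 of 718097. In Cu24h-24h the values were 8154, 12316 and 14719 CPM, and in Cu0h-24h they were 7275, 9391 and 20362 CPM, all below the lowest of the 6 Cu24h fish. The log2 fold change was -1.99 ± 0.43 (SE) in Cu24h-24h against Cu24h, with an FDR of 0.002831 by edgeR, and -2.09 ± 0.49 in Cu0h-24h against Cu24h, with an FDR of 0.004948. At 1 h it was 1.08 ± 0.27 in Cu24h-1h against Cu0h-1h, with an FDR of 0.0105.

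ENSIPUT00000030291, the second most abundant member, was singled out after its values were seen, because it was downregulated in 5 of the 8 comparisons. It had 1080, 1928 and 2756 CPM in Cu0h, 3742, 6764 and 14536 CPM in Cu24h, and 4057, 4954 and 7674 CPM in control, so that the Cu24h fish covered the whole control range. At 1 and 4 h after the later challenge it had 804 to 1669 CPM in Cu24h-1h and 1054 to 1742 CPM in Cu24h-4h, below every Cu24h fish. At 24 h it had 231, 256 and 373 CPM in Cu24h-24h and 259, 319 and 635 CPM in Cu0h-24h. The log2 fold change against Cu24h was -2.68 ± 0.38 in Cu24h-1h, -2.45 ± 0.38 in Cu24h-4h, -4.75 ± 0.42 in Cu24h-24h and -4.37 ± 0.47 in Cu0h-24h, with edgeR FDR of 0.0006401, 0.00158, 4.196e-07 and 2.718e-06. Between schedules it did not pass the test at any time, with log2 fold changes of 0.27 ± 0.25, 0.22 ± 0.27 and -0.39 ± 0.23 in Cu24h-1h, Cu24h-4h and Cu24h-24h over their Cu0h counterparts.

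ENSIPUT00000008989 and ENSIPUT00000038163 had the smallest FDR among the 35 members upregulated in any comparison, both in Cu24h-1h against Cu0h-1h. ENSIPUT00000008989 had 250, 423 and 505 CPM in Cu24h-1h, against 70.7, 82.8 and 115 CPM in Cu0h-1h, a log2 fold change of 2.20 ± 0.22 with an edgeR FDR of 6.306e-05. At 4 h it had 198 to 547 CPM in Cu24h-4h and 55.5 to 142 CPM in Cu0h-4h. The ranges were again apart, with a log2 fold change of 1.83 ± 0.28. At 24 h it had 57.6 to 102 CPM in Cu24h-24h, within and just below the 66.0 to 126 CPM of Cu0h-24h. ENSIPUT00000038163 had 730, 956 and 1325 CPM in Cu24h-1h, against 302, 345 and 393 CPM in Cu0h-1h, a log2 fold change of 1.49 ± 0.18 with an FDR of 0.0001729. Its 24 h values of 207 to 396 CPM in Cu24h-24h and 222 to 432 CPM in Cu0h-24h overlapped.

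Another pair of members had values unlike the rest. ENSIPUT00000003095 had the largest fall under the rule, with no count in any of the 6 Cu0h fish. Against a floor of 3 counts over the group (0.722 CPM), its Cu0h level was about 17.0-fold lower than the 12.2 ± 11.4 CPM of control (SD, n = 6). The floor was set on unscaled library totals and the control mean is TMM-scaled, so the ratio is rough. The control values of this transcript came from 40 counts in all. They were 34.1 CPM in 1 fish and 1.81 to 12.8 CPM in the other 5, so the level is imprecise. It was at 0 in 5 of 6 Cu24h-1h fish and in 1 of 6 Cu24h fish, and it did not pass the filter for testing. ENSIPUT00000030009, named after its values were seen, was the only member upregulated against Cu24h. It had 119, 203 and 347 CPM in Cu24h-24h and 119, 186 and 278 CPM in Cu0h-24h, against 0, 19.0 and 126 CPM in Cu24h. The ranges overlapped slightly, since 1 Cu24h fish reached above the lowest challenged fish. In Cu0h it had 0, 63.4 and 162 CPM, against 203, 280 and 422 CPM in control. The log2 fold change was 2.05 ± 0.67 in Cu24h-24h against Cu24h and 1.77 ± 0.63 in Cu0h-24h against Cu24h, with edgeR FDR of 0.03698 and 0.04967. Neither call passed in DESeq2's Wald test or in the older edgeR method, and that of Cu0h-24h did not pass without Cu24h replicates 1 and 3. Single fish also decided them. With 1 fish left out, no member was upregulated in 10 of 12 fits of Cu0h-24h against Cu24h, namely without any 1 of the Cu0h-24h fish or without Cu24h replicate 1, 2, 3 or 6. The same was so in 4 of 12 fits of Cu24h-24h against Cu24h, without Cu24h replicate 1 or 2 or Cu24h-24h replicate 4 or 6. The 2 Cu24h fish at 0 were replicates 1 and 3.

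**Figure D4:**
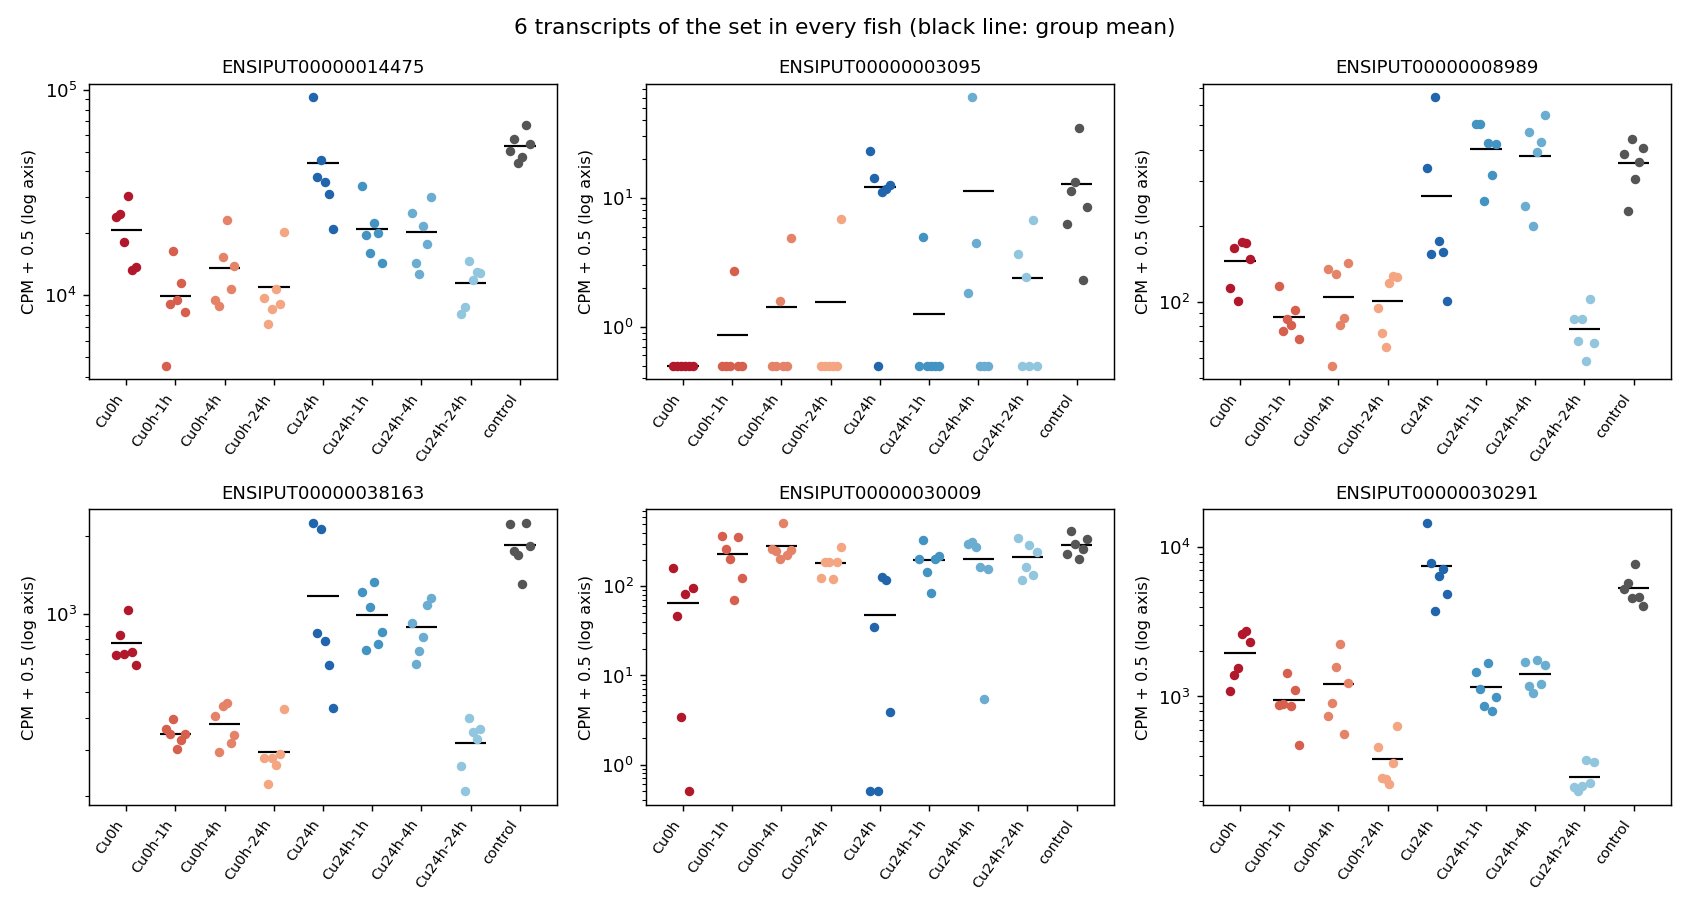
CPM of 6 members in every fish, with 0.5 CPM added to show zeros on the log axis. Points are fish, 6 per group, and black lines are group means. ENSIPUT00000014475 and ENSIPUT00000030291 are high in Cu24h and low in Cu24h-24h, ENSIPUT00000008989 and ENSIPUT00000038163 are higher in Cu24h-1h than in Cu0h-1h, and ENSIPUT00000030009 has lower means in Cu0h and Cu24h than in the other groups.

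Of the 112 members, 102 were tested in at least 1 of the 8 comparisons and 73 in all of them. In total 76 were called at least once, 30 of them in 2 comparisons, 24 in 3, 11 in 4 and 2 in 5, and 36 were never called. Several comparisons share fish, and the same counts over all transcripts were not taken, so they are not a trait of the set. Taken pair by pair, most members varied little together among the fish of 1 group. The median pairwise Pearson r of members, over deviations from the group means of 42 fish in the 7 groups that did not choose the set, was 0.04, against 0.01 over the 8120 transcripts. Pairs with r above 0.5 were 4.15% of the member pairs and 2.95% of all pairs. These r share libraries, depth and scaling and are given as a description. Within Cu24h the TMM-scaled level of the set differed between fish. Its median log2 ratio to control was -0.15 in replicate 1 and -0.38 in replicate 3, both libraries with few transcripts. In the other Cu24h fish it was -1.26 to -0.81. The TMM factors differed between the same fish, at 0.6097 and 0.7074 against 1.067 to 1.297. The unscaled share of counts was 8.67% in replicate 1 and 5.59% in replicate 3, against 5.32% to 6.98% in the others. The part of the scaling in this difference was not tested.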

How the data were processed

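The deposited values are estimated counts per Ensembl transcript, rounded to whole numbers by the authors, 1 file per fish. The submitters' notes list Trim Galore 0.5.0, Bowtie2 2.3.4.3, eXpress 1.5.1 and DESeq2 1.24.0 without saying what each did. The study's methods describe another, gene-level table, and the build and annotation behind the transcript table are not given in the sources used here. Such programs divide reads among similar transcripts, so members with near-identical copies are uncertain. Files were joined by identifier. None of the identifiers (0) paired with a gene name in the reference table, so gene lists and cell markers could not be used and no sequence is shown.

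The rule was applied to TMM CPM of all 54 libraries. Each of 8 comparisons was fitted on its own 12 fish with edgeR 4.0.16 (R 4.3.3; filterByExpr, TMM, quasi-likelihood F-test), with p-values adjusted by Benjamini-Hochberg over all transcripts tested and a call at FDR under 0.05 and log2 fold change above 1 in size. SE is the log2 fold change divided by the square root of F. No comparison that includes Cu0h or control was tested. Scripts were checked on simulated data. DESeq2 1.42.0, other scalings, filters, a replicate block and left-out fish were tried as alternatives. No files of 1 group agreed within sampling noise.

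The members and lists were chosen with earlier results of these data known. The transcripts named are the member with the highest control mean, the one with the largest ratio of control to Cu0h, and, among members upregulated in any comparison, the 2 with the smallest FDR. A further 2 were added after their values were seen. The floor of 3 counts covers counting error only, and SD and SE include the spread between fish.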

Additional observations from a re-analysis of the deposited data

Results flagged for a closer look

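Single fish far from the other 5 of their group were looked for in the summed level of the set, in the median log2 ratio of the set to control and in the 6 transcripts named above, over 72 groups of values. Dixon's test at the 95% level picked out 12. Its rate of about 1 in 20 by chance holds for independent, normally distributed values, and is no yardstick here. The measures overlap, and where the other 5 fish were at 0 any count is picked out. Cu24h replicate 1 was high in the summed level, at 144057 CPM against 42828 to 80347 CPM in the others, and in ENSIPUT00000014475, at 92013 CPM against 20940 to 45559 CPM. This library had the smallest number of transcripts detected at equal depth, and the part of that in these values was not tested. Cu0h-24h replicate 6 was high in 4 of the measures. This library too had few transcripts detected at equal depth, 13653 against 16310 to 17434 in the others of its group. Its TMM factor was 0.8626, against 1.12 to 1.287, and the part of that in these values was not tested. Its summed level was 31756 CPM against 14079 to 17494 CPM, ENSIPUT00000014475 had 20362 against 7275 to 10750 CPM, ENSIPUT00000038163 had 432 against 222 to 289 CPM, and ENSIPUT00000003095 had 6.40 CPM against 0. ENSIPUT00000003095, with few counts, gave 5 more, at 2.22 CPM in Cu0h-1h replicate 4, 4.42 CPM in Cu0h-4h replicate 6, 4.49 CPM in Cu24h-1h replicate 2, 60.1 CPM in Cu24h-4h replicate 2 and 34.1 CPM in control replicate 4. ENSIPUT00000030009 had 517 CPM in Cu0h-4h replicate 4, against 204 to 261 CPM in the others. That library had 13368 transcripts detected, against 16045 to 17225, and a TMM factor of 0.8875, against 1.05 to 1.209.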

How the results depend on the processing

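The set itself held 92 transcripts with DESeq2 size factors, all among the 112, 124 with no filter and 112 with the library sizes of all transcripts. It held 69 without scaling factors (an alternative chosen after seeing the data) and 510 without Cu0h replicates 5 and 6. With 1 fish left out it held 127 to 170, with 170 without Cu0h replicate 5 and 167 without control replicate 2. Fewer fish meet a rule without overlap more easily. The comparisons at 24 h against Cu24h stayed within 1.5 times of their counts, at 49 to 82 for Cu24h-24h and 55 to 79 for Cu0h-24h over the other settings, and with 1 fish left out at 56 to 67 and 61 to 69. The 29 and 21 members called between schedules at 1 and 4 h became 29 to 39 and 18 to 27, and 27 to 36 and 16 to 25 with 1 fish left out, all upregulated in the other settings. The counts of Cu24h-1h and Cu24h-4h against Cu24h, 3 and 8, became 9 and 13 with DESeq2's Wald test, 10 and 16 with no filter, 13 and 28 with all 9 groups in 1 fit, and 21 and 23 without Cu24h replicates 1 and 3. With 1 fish left out they were 2 to 8 and 6 to 12. Cu0h-24h against Cu0h-1h gave 5 with the Wald test and 5 with no filter, and 2 to 5 with 1 fish left out, 5 without Cu0h-24h replicate 6. Cu24h-24h against Cu0h-24h gave 1 with the Wald test, 4 with no filter and 0 to 0 with 1 fish left out. All of these are counts of members, and the matching share of all transcripts was not taken for the other settings. The cause of these shifts was not tested.

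No pairing of the fish by replicate number was detected. In no comparison did more than 1 of 6 same-numbered pairs correlate above 0.1. At most 2 of the 6 fish of the first group correlated best with their own number. With 6 pairs, such a check cannot exclude a weak pairing. A replicate block changed the count of Cu24h-4h against Cu24h to 4, and gave 2, 49, 55, 2, 30, 18 and 0 for the other comparisons in the order of the plot of fold changes. At totals of 352013 to 1190864 counts, members with few counts drop to 0 in single fish and were often not testable.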
